A study of Coturnix japonica with 54 samples.

Results

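The receptors for glutamate and GABA, the main fast excitatory and inhibitory transmitters of the brain, were followed through a simulated autumn and spring in the hypothalamus of male Japanese quail (Coturnix japonica), whose reproduction follows day length. A subunit was any gene symbol of the GABA-A (GABR), GABA-B (GABBR), AMPA (GRIA), kainate (GRIK), delta (GRID), NMDA (GRIN) or metabotropic glutamate (GRM) receptor families. Such subunits made up 42 of the 19916 genes in the deposited CPM table, 19 of them GABA and 23 of them glutamate receptor genes. Each library came from the mediobasal hypothalamus of 1 male, with 6 birds in each of 9 groups, picked pseudo-randomly by body mass. The birds had spent 2 weeks at each day length before the next. They started at 16 h of light per day (16La), stepped down through 14 h (14La), 12 h (12La) and 10 h (10La) to 8 h (8L), and stepped up again through 10 h (10Lv), 12 h (12Lv) and 14 h (14Lv) to 16 h (16Lv). The letters a and v were read as the declining (autumnal) and the rising (vernal) arm. Genotype, strain, age and any drug are not given in the labels. The groups follow each other in time, and the rising arm was sampled later in the study than the declining arm, so arm and time cannot be told apart. Nor can day length or light history be told apart from time in any difference between 2 groups.

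Both transmitters act through channels and through slower receptors. GABA-A receptors are chloride channels built of several subunits, GABA-B receptors couple to G proteins, and both usually quiet a neuron. AMPA, kainate and NMDA receptors are cation channels that excite it, delta receptors organise synapses, and metabotropic glutamate receptors tune release and excitability through G proteins. In the hypothalamus these receptors set the activity of the neurons that drive the pituitary, the gonadotropin-releasing hormone neurons among them.

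Reads recovered from the CPM ranged from 251382 to 1895615 per library (median 938816), with 8544 to 13554 genes detected. The 9 shallowest libraries, 1 in each group, had 251382 to 379260 reads. Between replicates 3 and 6 of 16Lv the reads differed by no more than sampling noise, and both were counted as 1 sample, which left 53 libraries, and n = 5 in 16Lv. Among marker genes, 9 of neurons summed to 37080 ± 7416 CPM (SD, n = 53) and 11 of hypothalamic peptide neurons to 906.4 ± 217.1 CPM. The 6 astrocyte and tanycyte genes summed to 411.5 ± 76.8 CPM and 6 pituitary genes to 144.4 ± 70.7 CPM. No other brain region was sampled, so these sums do not test which region was taken. In such bulk tissue fewer cells of a type and less RNA per cell cannot be told apart. CPM here is a gene's reads scaled to 1000000 reads of the library, with no division by length. CPM of different genes are not compared as expression levels, and sums and shares over genes are those of reads. The highest CPM of a class only set which genes are named.

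All 42 subunits had a read in at least 1 library, and 18 had one in all 53. The 42 together took 0.246 ± 0.0729% of the CPM (SD, n = 53, range 0.12% to 0.514%), and glutamate receptors made up 67.7 ± 10.4% of that. GRIA3 and GABRB2 together made up 44.9 ± 11.7% of the receptor CPM, and between 27.9% and 76.3% in single libraries. A filter of at least 10 CPM in at least 6 libraries kept 29 subunits among 8268 genes. It kept 10 of 18 GABA-A, 1 of 1 GABA-B, 4 of 4 AMPA, 3 of 4 kainate, 2 of 2 delta, 4 of 6 NMDA and 5 of 7 metabotropic glutamate receptor genes. The other 13 stood near or below 5 CPM.

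**Figure D1:**
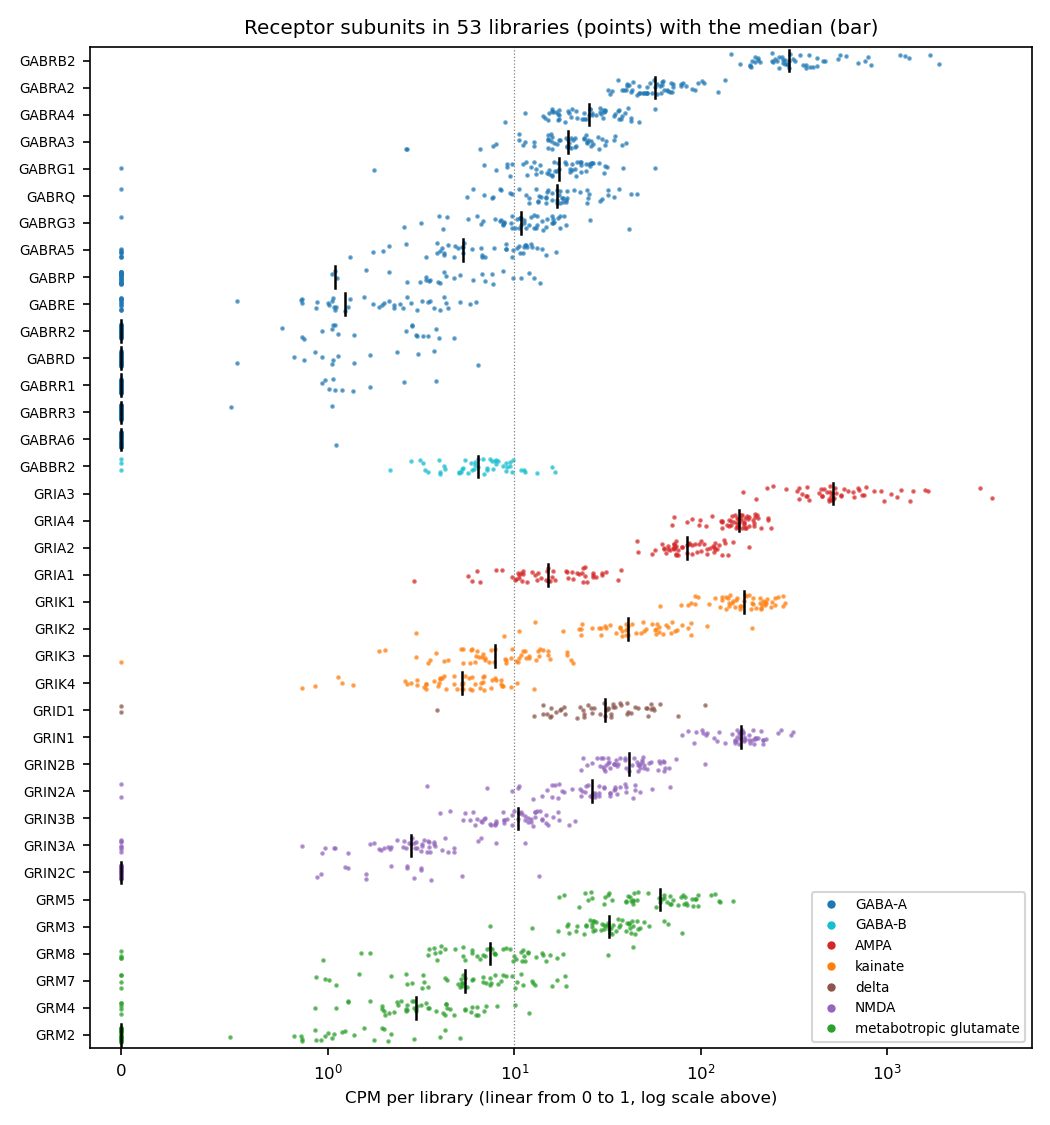
CPM of 37 subunits (horizontal axis, linear from 0 to 1 and on a log scale above) in the 53 libraries (points), with the median over libraries (bar), grouped and coloured by receptor class; the dotted line marks 10 CPM. GRIA3 (168.2 to 3663 CPM) and GABRB2 (144.8 to 1907 CPM) spread far to the right of their medians, and the subunits under the filter lie mostly to the left of the line.

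Among GABA-A receptor genes, the beta subunit GABRB2 had a median of 297 CPM (range 144.8 to 1907 over 53 libraries). A beta subunit is part of nearly every GABA-A receptor, and the GABA site lies between it and an alpha subunit. Of the alpha subunits GABRA2 had a median of 56.8 CPM (32 to 135), GABRA4 25.2 CPM (8.93 to 57), GABRA3 19.5 CPM (2.61 to 39.6) and GABRA5 5.31 CPM (0 to 16.8). GABRA6, a subunit of cerebellar granule cells in mammals, gave 1 read in 1 library. Of the gamma subunits GABRG1 had a median of 17.3 CPM (0 to 57) and GABRG3 of 10.9 CPM (0 to 41).

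Other GABA-A subunits replace a gamma subunit or form receptors of their own. GABRD, the delta subunit that carries tonic inhibition in mammals, had 25 reads over 14 libraries. The theta subunit GABRQ had a median of 16.9 CPM (0 to 45.6). GABRE (epsilon) had a median of 1.23 CPM and GABRP (pi) of 1.08 CPM. The rho subunits, best known from the retina, gave 16 reads for GABRR1, 41 for GABRR2 and 2 for GABRR3. GABBR2, the GABA-B subunit that couples to the G protein, had a median of 6.35 CPM (0 to 16.5) and reached 10 CPM in exactly 6 libraries. Its partner GABBR1 was not analysed, as neither deposited table had a row under that symbol.

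Among AMPA receptor genes GRIA3 had a median of 512.9 CPM (168.2 to 3663), GRIA4 160.7 CPM (70.3 to 238.3), GRIA2, the subunit whose edited form blocks calcium, 84.1 CPM (45.8 to 181.5) and GRIA1 15.2 CPM (2.9 to 37.4). GRIA3 is uncertain as a measure of 1 gene, because the unnamed feature LOC121110207 ran beside it at 0.864 to 1.44 times its CPM in all 53 libraries (median 1.19), and the reads may be shared between them. Among kainate receptor genes GRIK1 had a median of 171.7 CPM (60.5 to 283), GRIK2 40.7 CPM (2.98 to 188.2) and GRIK3 7.89 CPM (0 to 20.5). GRIK4, which needs one of the others to form a channel, had 5.25 CPM (0.873 to 12.8) and missed the filter. Of the delta receptor genes GRID1 had a median of 30.8 CPM (0 to 105.9).

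Among NMDA receptor genes GRIN1, the subunit every NMDA receptor needs, had a median of 164.8 CPM (79.5 to 311.1). The glutamate-binding subunits GRIN2B and GRIN2A had medians of 41 CPM (22.7 to 105.9) and 26.2 CPM (0 to 68.5), and GRIN2C had 44 reads over 15 libraries. Of the glycine-binding GRIN3 subunits, GRIN3B had 10.5 CPM (3.98 to 21.2) and GRIN3A 2.77 CPM (0 to 11.3). Among metabotropic receptors GRM5, which couples to phospholipase C, had a median of 60.4 CPM (17.4 to 148.7). GRM3, which lowers cyclic AMP in glia and nerve endings, had 32 CPM (7.38 to 79.4). Of the release-braking receptors GRM8 had 7.41 CPM (0 to 43.4), GRM7 5.45 CPM (0 to 18.8) and GRM4 2.94 CPM (0 to 11.9), and GRM2 gave 41 reads over 25 libraries.

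The first comparison asked whether any subunit differed among the 9 groups. None of the 29 passed limma's moderated F test, in which 0.0363% of the 8268 genes (3) passed a Benjamini-Hochberg adjusted p of 0.05, and the smallest adjusted p of a subunit was 0.998. At an unadjusted p under 0.05 stood 3 subunits (10.3% of 29, against 3.79% of all genes), GRIK1 and GRIA3 among them. GABRA4 and GRIA1 came next, past that limit. No subunit passed in any of the 17 contrasts of the CPM table, nor when limma-voom, edgeR or DESeq2 was run on the recovered reads. Each of the 13 subunits under the filter also stayed above an adjusted p of 0.05 when limma was run with no filter, the smallest value being 0.426.

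GRIK1, the GluK1 kainate receptor subunit, averaged 123.6 ± 46.3 CPM in 16La, 166.6 ± 31.4 in 14La, 212.1 ± 50.6 in 12La, 207.2 ± 55.8 in 10La, 189.9 ± 43.8 in 8L, 221.5 ± 55.5 in 10Lv, 156.1 ± 53 in 12Lv, 123.9 ± 27.7 in 14Lv and 158.7 ± 47.8 in 16Lv (SD, n = 6, and n = 5 in 16Lv). The means of 12La, 10La, 8L and 10Lv were above those of the other 5 groups, and birds of these groups overlapped birds of the others. Its slope on hours of light over the 9 groups was -0.08 log2 units per hour (SE 0.022, limma adjusted p = 0.708).

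GABRA4, an alpha subunit of receptors outside the synapse in mammals, averaged 29.6 ± 11.5 CPM in 16La, 19.9 ± 3.41 in 14La, 24.9 ± 8.79 in 12La, 30.1 ± 14 in 10La, 34.8 ± 7.42 in 8L, 31.6 ± 10.7 in 10Lv, 21.8 ± 5.71 in 12Lv, 23.5 ± 8.83 in 14Lv and 16.6 ± 3.66 in 16Lv. Its mean was highest in 8L and lowest in 16Lv, with 16La above 4 of the groups at shorter days. Its slope was -0.08 log2 units per hour (SE 0.027, limma adjusted p = 0.858). GABRA4 overlaps GABRB1 in the RefSeq gene table, and whether strand was used in counting is not given in the sources used here, so reads of the 2 genes may be mixed.

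Across the slopes on hours of light 0 of 29 subunits passed limma's adjusted p of 0.05, as did 0% of the 8268 genes. Unadjusted p was under 0.05 for 4 subunits (13.8%, against 5.15% of all genes), GRIK1, GABRA4 and GRIA3 among them, these being lower on longer days. The median slope of the 29 was -0.0013 log2 units per hour and that of all genes -0.0017. Toward longer days the smallest p values were those of GRIN1 (0.032, SE 0.022), GABRB2 (0.063, SE 0.048) and GRIA2 (0.027, SE 0.023). All 3 intervals held 0.

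**Figure D2:**
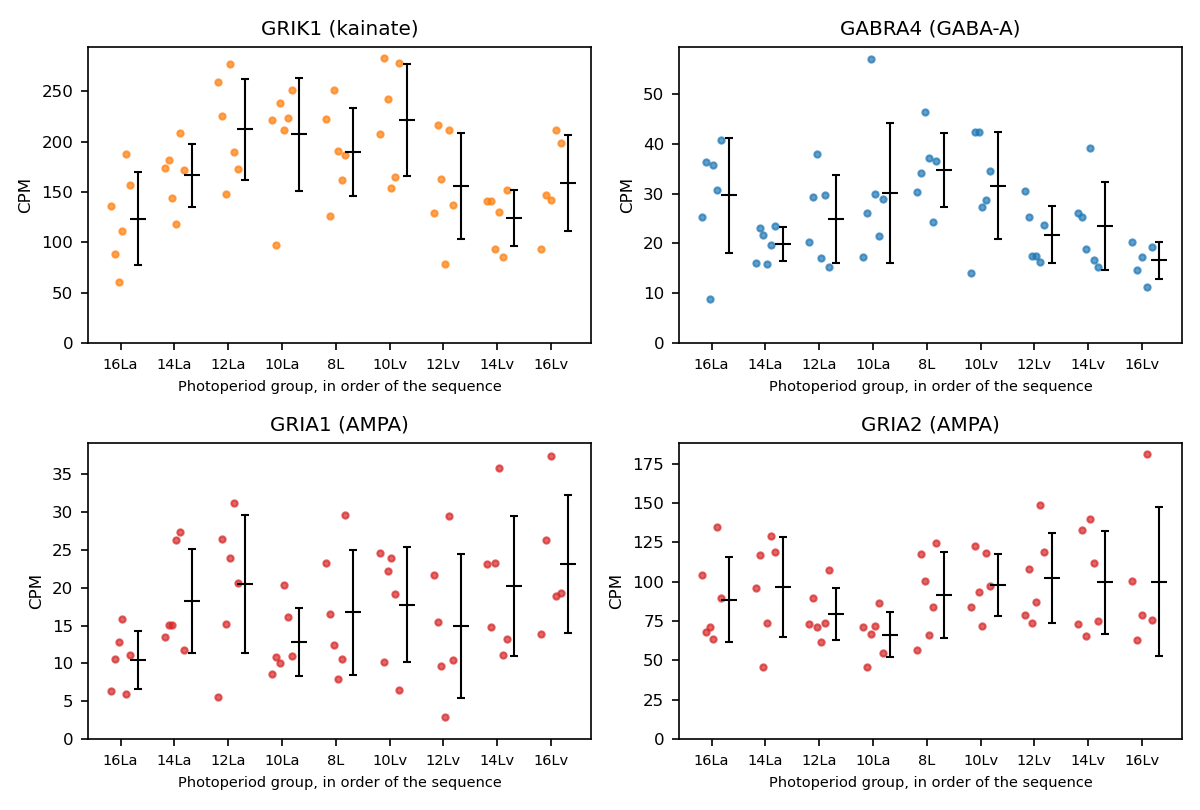
CPM of GRIK1, GABRA4, GRIA1 and GRIA2 (vertical axes, from 0) in each bird (points) by photoperiod group in the order of the sequence, with the mean and SD beside the points. GRIK1 has its highest mean in 10Lv (221.5 CPM), GABRA4 in 8L (34.8 CPM) and GRIA1 in 16Lv (23.2 CPM), and birds of neighbouring groups overlap in every panel.

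The shortest days were set against the initial long days. GRIK1 had 126.5, 188.8 and 251 CPM in 8L as lowest, median and highest bird, against 60.5, 124 and 187.7 CPM in 16La. Of the 8L birds 3 lay above every 16La bird, and the groups overlapped. The fitted difference was 0.70 log2 units (SE 0.24, 95% interval 0.21 to 1.19, limma adjusted p = 0.999).

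GRIA3 had 507, 907.4 and 1659 CPM in 8L, against 288.1, 425.8 and 1136 CPM in 16La, a difference of 1.02 log2 units (SE 0.45, interval 0.12 to 1.92, limma adjusted p = 0.999). Every 8L bird stood above the highest but 1 of 16La. Of the 29 subunits 0 passed in this comparison, as did 0% of all genes, and 3 had an unadjusted p under 0.05 (10.3%, against 4.21% of all genes). In all 21 of the 29 had a positive difference, 9 of 10 GABA-A genes among them, with a median of 0.07 log2 units against 0.02 for all genes. The share of all genes with a positive difference is not given here, so the 21 are not read as a shared rise. In 8L minus 10La, which uses the same 8L birds, 20 of the 29 were positive, with a median of 0.12 log2 units against 0.03 for all genes. These 20 are not read as a shared rise either. Lower in 8L, with intervals that held 0, were GRIN1 (-0.35, SE 0.24), GABRB2 (-0.31, SE 0.52) and GRIN2A (-0.40, SE 0.68). The difference of GABRB2 was 0.0048 without 16La replicate 3, and that of GRIN2A 0.36 without 8L replicate 3. Oligodendrocyte markers summed to 6268 ± 1413 CPM in 8L and 8693 ± 2071 CPM in 16La over 6 genes, with birds from 4654 to 8596 CPM in 8L and from 6219 to 11470 CPM in 16La. Microglial markers summed to 52.5 ± 9.07 CPM in 8L (40.1 to 64.5) and 27.5 ± 6.37 CPM in 16La (19.9 to 34.2) over 6 genes. Neuronal markers summed to 36300 ± 4903 CPM in 8L (29460 to 41820) and 37770 ± 5430 CPM in 16La (32580 to 47050). No marker found in the table was at 0 in all libraries, and their part in these differences was not tested.

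The return to long days set 16Lv against 8L. GABRA4 had 11.3, 14.6, 17.3, 19.3 and 20.4 CPM in the 5 libraries of 16Lv, against 24.2, 35.3 and 46.4 CPM as lowest, median and highest bird of 8L. The groups did not overlap, which held for 1 of the 29 subunits and for 0.423% of the 8268 genes. These levels rest on 70 reads in 16Lv, 3 of them in the lowest library, and on 198 reads in 8L. In the other 5 pairs of groups (8L and 16Lv against 16La, and the arms at 10, 12 and 14 h) no subunit separated the groups fully, where 0.194% to 0.351% of all genes did. The difference was -0.97 log2 units (SE 0.31, interval -1.59 to -0.35, limma adjusted p = 0.821). Its range over all alternatives of the CPM table was -1.07 to -0.76, with adjusted p from 0.519 to 1. In the deposited table of estimated counts GABRA4 lay below the filter and was not tested. There it averaged 117.1 ± 164.9 CPM in 16Lv (15 counts) and 48.4 ± 62.9 CPM in 8L (13 counts) (SD, n = 6 each). These counts were summed over 4 transcripts and came from 3 of 6 libraries in each group. Libraries ran from 0 to 413.7 CPM in 16Lv and from 0 to 147.8 CPM in 8L, so the groups overlapped. The higher mean of 16Lv is therefore not read as a direction.

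GRIA3 had 197.6, 244, 525.5, 655.9 and 930.9 CPM in 16Lv, against 507 to 1659 CPM in 8L, a difference of -1.02 log2 units (SE 0.47, limma adjusted p = 0.886) between overlapping groups. GRM5, the phospholipase-coupled receptor, followed at -0.82 (SE 0.47, adjusted p = 0.898). The differences toward higher levels in 16Lv with the smallest p were those of GABRA2 (0.43, SE 0.27), GRIN2A (0.98, SE 0.71) and GRIA1 (0.56, SE 0.41), each with an interval that held 0. Again 0 of 29 subunits and 0% of all genes passed in limma, and 2 subunits had an unadjusted p under 0.05 (6.9%, against 5.42% of all genes).

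The same 16 h day was compared after and before the cycle. GRIA1, the AMPA subunit tied to synaptic plasticity in mammals, had 13.9, 18.9, 19.3, 26.3 and 37.4 CPM in 16Lv, against 5.9, 6.31, 10.6, 11.1, 12.9 and 15.9 CPM in 16La. Of the 16Lv libraries 4 stood above every 16La bird and 1 lay between the 2 highest of them. The difference was 1.15 log2 units (SE 0.41, interval 0.32 to 1.99, limma adjusted p = 0.619). Microglial markers summed to 40.7 ± 6.41 CPM in 16Lv (34 to 50.4) and 27.5 ± 6.37 CPM in 16La (19.9 to 34.2), and oligodendrocyte markers to 6682 ± 2125 CPM in 16Lv (5045 to 10370) and 8693 ± 2071 CPM in 16La (6219 to 11470). Their part in the difference was not tested. GRIK1 was at 0.48 (SE 0.25; 0.27 without 16La replicate 1) and GABRA2 at 0.43 (SE 0.27) on the same side. On the other side stood GABRA4 at -0.61 (SE 0.31; -0.94 without 16La replicate 1), GABRG1 at -0.85 (SE 0.54) and GRIA4 at -0.31 (SE 0.24). The difference of GABRG1 was 0.025 without 16Lv replicate 4. No subunit passed in limma, where 0.0242% of all genes did, and only GRIA1 had an unadjusted p under 0.05 (3.45% of the 29, against 5.79% of all genes).

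The arms of the cycle were compared at equal day length. GRIA2 averaged 97.9 ± 19.7 CPM in 10Lv and 66.3 ± 14.3 in 10La, 102.5 ± 28.5 in 12Lv and 79.5 ± 16.5 in 12La, and 99.8 ± 32.7 in 14Lv and 96.8 ± 31.8 in 14La (SD, n = 6 each). The rising arm had the higher mean at each of the 3 day lengths, by most at 10 h, where the birds spanned 71.8 to 122.9 CPM in 10Lv and 45.8 to 86.8 CPM in 10La. The mean difference of rising minus declining was 0.33 log2 units (SE 0.14, interval 0.04 to 0.61, limma adjusted p = 0.944). Pituitary markers also had the higher mean in the rising arm at each day length, with 155.1 ± 100 CPM in 10Lv and 135.9 ± 38 in 10La, 189.3 ± 56.7 in 12Lv and 78.8 ± 58.3 in 12La, and 226.9 ± 55.2 in 14Lv and 125.9 ± 52 CPM in 14La. Their birds overlapped at each day length. Oligodendrocyte markers summed to 7044 ± 1276 CPM in 10Lv and 7925 ± 1881 in 10La. They summed to 6181 ± 1443 CPM in 12Lv (3960 to 7563) and 8522 ± 2036 CPM in 12La (5551 to 11010). At 14 h their sums were 6513 ± 1762 CPM in 14Lv and 7010 ± 1049 in 14La. Microglial markers summed to 31.12 ± 13.02 CPM in 10Lv and 46.25 ± 20.21 in 10La. Their sums were 31.51 ± 15.78 CPM in 12Lv and 52.36 ± 18.47 in 12La, but 64.72 ± 29.43 in 14Lv and 39.94 ± 20.28 in 14La. The part of any of these markers in the differences between the arms was not tested. GRIA4 (0.22, SE 0.13) and GRIN1 (0.19, SE 0.14) came next after GRIA2 among subunits higher in the rising arm. On the other side stood GRIK1 (-0.26, SE 0.14), GABRB2 (-0.49, SE 0.30) and GABRA5 (-0.64, SE 0.40). No subunit passed in limma, where 0.0121% of all genes did, and 1 subunit had an unadjusted p under 0.05 (3.45%, against 4.81% of all genes). For 24 of the 29 subunits the 95% interval lay within 1 log2 unit of 0 on both sides, which was so for 10 in 8L minus 16La and 9 in 16Lv minus 8L.

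**Figure D3:**
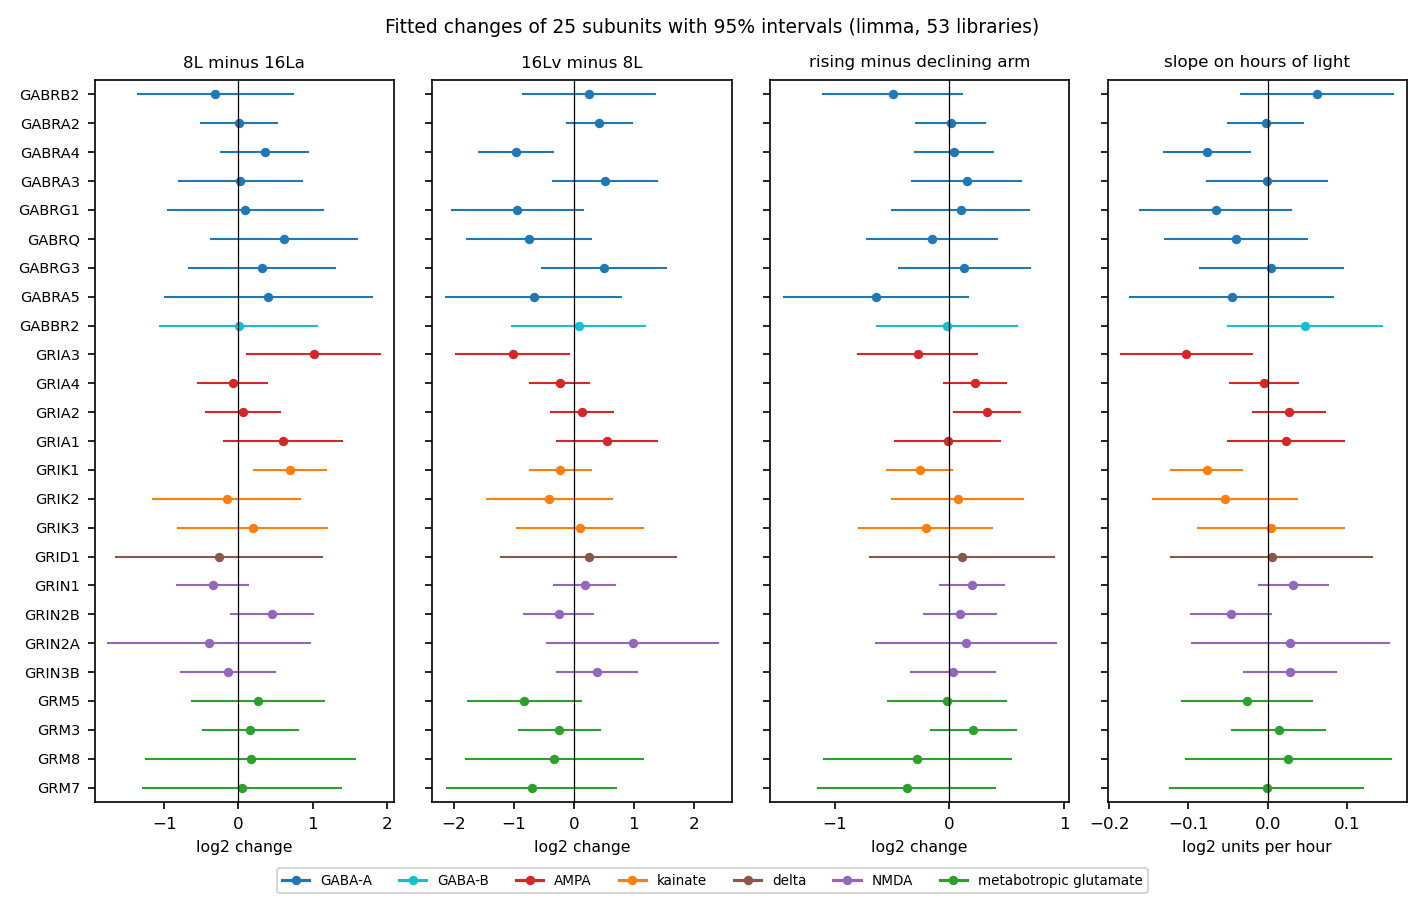
Fitted log2 differences of 25 subunits past the filter (points) with 95% intervals (lines) from limma over 53 libraries, for 8L minus 16La, 16Lv minus 8L and the rising minus the declining arm, and slopes in log2 units per hour of light. GRIK1 lies right of 0 in 8L minus 16La (0.70) and left of it in the slope (-0.08), GABRA4 lies left of 0 in 16Lv minus 8L (-0.97), and most other intervals hold 0.

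At single day lengths and steps no subunit passed in limma. Unadjusted p was under 0.05 for 1 subunit at 10 h (3.45%, against 4.9% of all genes), 1 at 12 h (3.45%, against 4.97%) and 0 at 14 h (against 3.6%). At each step it was under 0.05 for 0 to 2 subunits (0% to 6.9%, against 3.5% to 5.62% of all genes). Over the 3 pairs of arms 0.0121% of all genes passed at 10 h and 0% at 12 h and at 14 h. The smallest p values were those of GRIA2 in 10Lv minus 10La (0.52 log2 units, SE 0.25), GRIA3 in 12Lv minus 12La (-0.94, SE 0.45) and GRIA3 in 14Lv minus 14La (0.82, SE 0.45). The difference between those 2 GRIA3 effects was 1.76 log2 units (SE 0.63, limma adjusted p = 0.999).

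Along the declining arm the smallest p of each step belonged to GRIN1 in 14La minus 16La (-0.53, SE 0.24), GRIA3 in 12La minus 14La (0.99, SE 0.45), GABRA5, an alpha subunit enriched in the mammalian hippocampus, in 10La minus 12La (1.58, SE 0.69), and GRM3 in 8L minus 10La (0.77, SE 0.32). At 3 of the 4 steps of the rising arm it belonged to GABRA2 in 10Lv minus 8L (0.54, SE 0.26), GRIK1 in 12Lv minus 10Lv (-0.45, SE 0.24) and GRIK2 in 16Lv minus 14Lv (-1.06, SE 0.52). The limma adjusted p values of these 7 ran from 0.873 to 1. Of all genes 0.0121% passed at each of 3 steps, 14 to 12 h, 12 to 10 h and the last one from 14 to 16 h, and 0% at the other 5.

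Summed by receptor class, AMPA receptor genes had 1257 ± 375.1 CPM in 8L and 791.9 ± 306.8 CPM in 16La, and without GRIA3 271.7 ± 47.6 and 274.1 ± 43.1 CPM. Kainate receptor genes summed to 236.4 ± 55.9 CPM in 8L and 185.8 ± 74.6 CPM in 16La, with the highest mean, 294.1 ± 54.9 CPM, in 10Lv. NMDA receptor genes summed to 244.9 ± 28.8 CPM in 8L and 289.7 ± 57.3 CPM in 16La, and metabotropic ones to 156.1 ± 32.7 and 149.8 ± 53.4 CPM. GABA-A genes without GABRB2 summed to 332.7 ± 44.3 CPM in 8L and 318.8 ± 22.6 CPM in 16La. With GABRB2 they summed to 772.5 ± 353.3 CPM in 8L and 859.4 ± 394 CPM in 16La. The 40 subunits other than GABRB2 and GRIA3 summed to 1281 ± 158.7 CPM over the 53 libraries (844.4 to 1637).

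**Figure D4:**
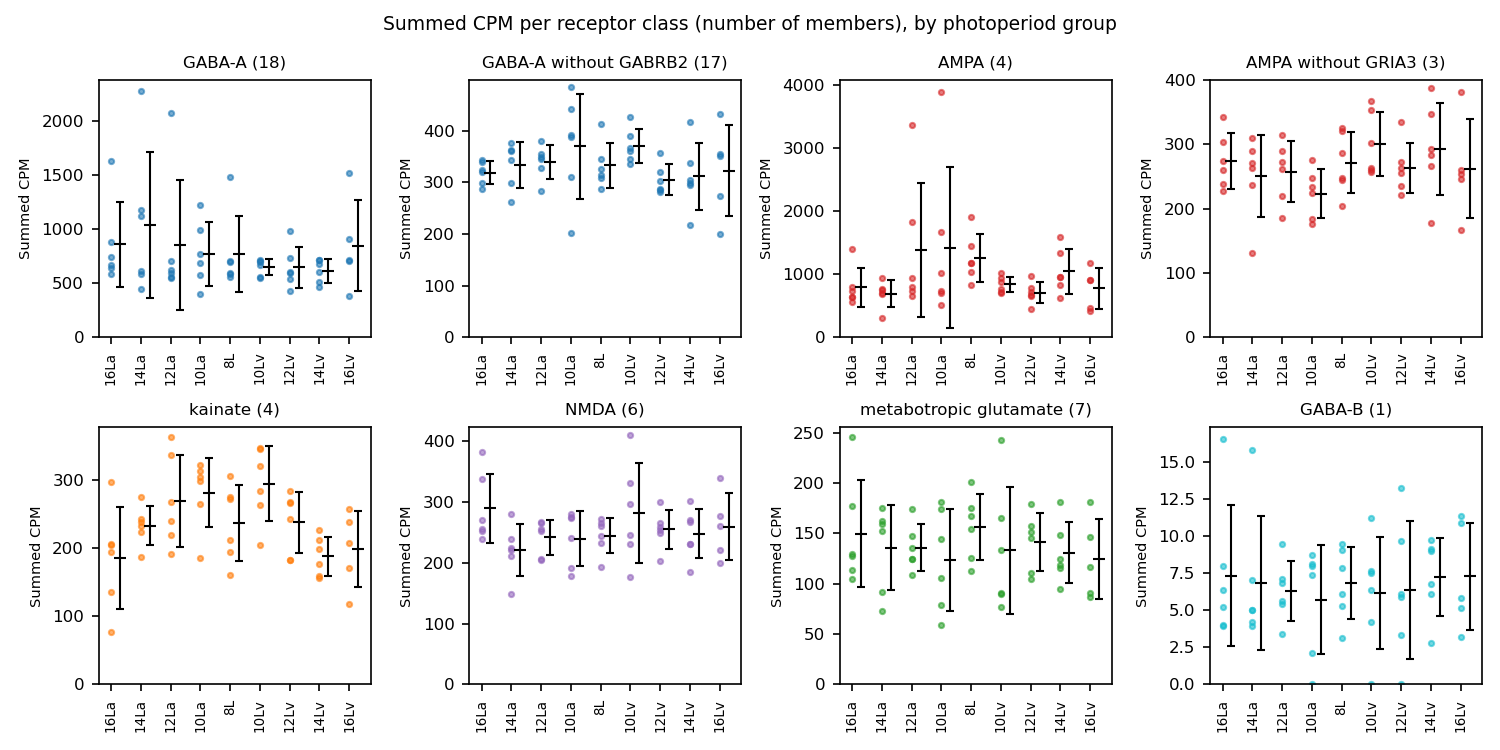
Summed CPM per receptor class (vertical axes, from 0; number of genes in the title) in each library (points) by photoperiod group, with mean and SD. AMPA and GABA-A sums hold single libraries far above the rest (up to 3886 and 2283 CPM), which the sums without GRIA3 and without GABRB2 do not.

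GABRB2 and GRIA3 stood far apart between birds of the same group. GABRB2 exceeded 1000 CPM in 5 libraries of 5 groups, at 1907 CPM in 14La, 1699 in 12La, 1315 in 16La, 1248 in 16Lv and 1175 CPM in 8L, while its group medians lay between 272.8 and 538.2 CPM. All 5 libraries sat in column position 5 of their group in the deposited table. In 7 of the 9 groups the GABRB2 maximum was in that position, the exceptions being 10La (787.1 CPM in position 4, 282.8 in position 5) and 10Lv (380.3 CPM in position 2, 196.5 in position 5). The median over the 9 groups was 1175 CPM in position 5 and between 263.5 and 319.8 CPM in the other positions. What the column positions stand for is not given in the sources used here. Position went with depth, with a median of 307307 reads in position 4 and 765672 to 1143220 in the other positions. The 9 shallowest libraries all sat in position 4, except that of 10La, in position 3. Leaving out those 9 therefore left position 4 with a library of 10La alone.

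With the groups in the model, GABRB2 was the 1 subunit of 29 that differed among the 6 column positions (limma F test, adjusted p = 0.016, and 0.0225 without the 9 shallowest libraries), where 2.73% of the 8268 genes did. This test was added after the values were seen. An unadjusted p under 0.05 was found for 4 subunits (13.8%, against 18.3% of all genes), GABRB2, GRIA2 and GRIN3B among them. With position as a block, the slopes on hours of light were -0.07 for GRIK1 and -0.08 for GABRA4, and 0 subunits passed.

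GRIA3 exceeded 1000 CPM in 9 libraries of 5 groups, at most 3663 CPM in a 10La bird and 3173 CPM in a 12La bird. Of these 9, 2 sat in column position 5. Those at 1600 CPM in 12La, 1384 in 10La, 1328 in 14Lv and 1191 CPM in 8L sat in position 1. The GRIA3 median over the 9 groups was 930.9 CPM in position 1 (492.9 to 1600) and between 429.7 and 585.7 CPM in the other positions. GRIA3 did not pass the limma F test among positions (adjusted p = 0.398). The bird with 1659 CPM of GRIA3 in 8L was the one with 1175 CPM of GABRB2. The SD within groups was 0.94 log2 units for GABRB2 and 0.80 for GRIA3. It was 0.40 to 0.51 for GRIA4, GRIN1, GRIK1, GRIA2, GABRA2, GRIN2B, GABRA4 and GRIN3B. Between GRIA3 and GABRB2 lay GABRG3, GABRQ, GRIK3, GRIK2, GABBR2 and GABRG1, at 0.85 to 0.91. Above both stood GRM7, GRIN2A, GABRA5, GRM8 and GRID1, at 1.16 to 1.23. Of the 500 genes nearest in mean log2 level, 97.4% had less spread than GABRB2, and 97.2% less than GRIA3.

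**Figure D5:**
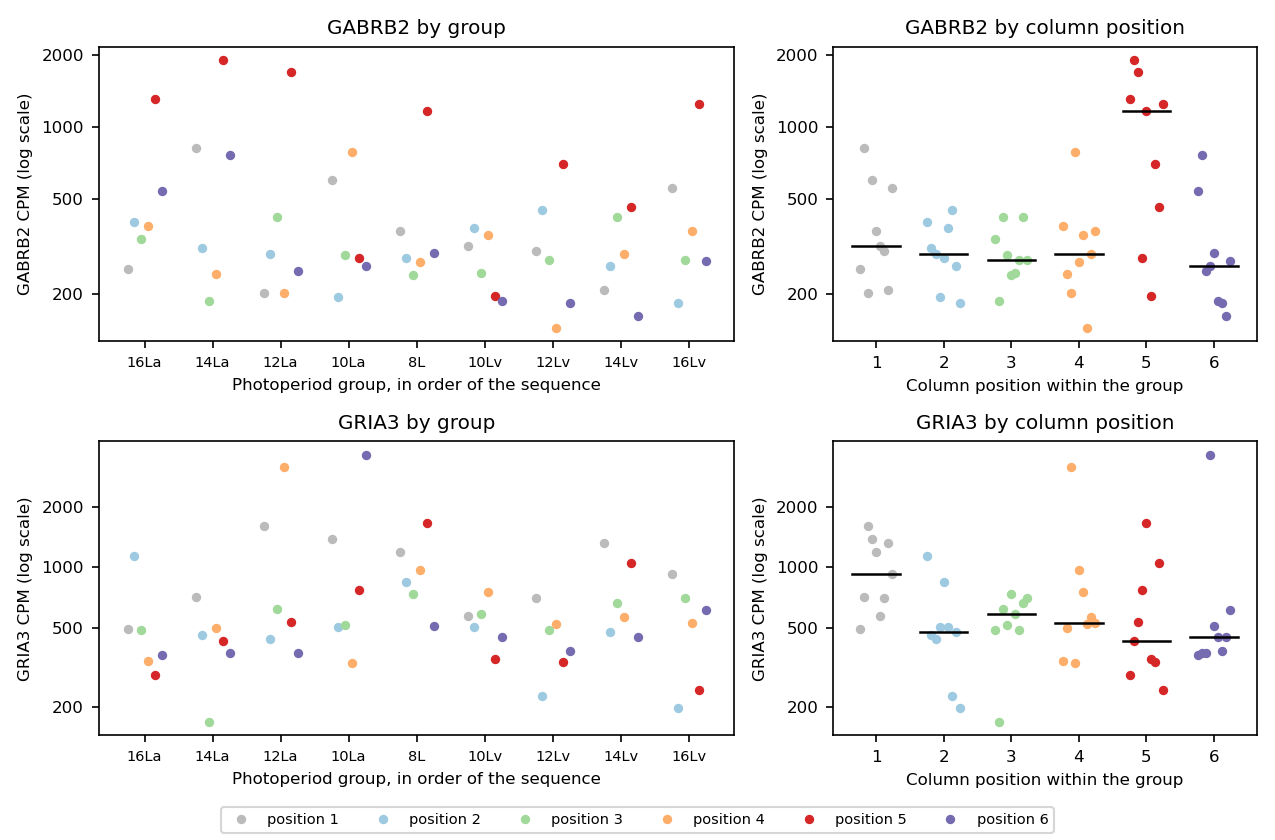
CPM of GABRB2 and GRIA3 (log scale) in the 54 columns of the deposited table, by photoperiod group (left) and by column position within the group (right, with the median as a bar), coloured by position. GABRB2 reaches its group maximum in position 5 in 7 of 9 groups (median 1175 CPM there), while the highest GRIA3 values, 3663 and 3173 CPM, lie in positions 6 and 4. The highest GRIA3 median, 930.9 CPM, is that of position 1.

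Genes that surround the receptors were taken from 5 lists with 89 genes, of which 66 passed the filter. None of the 66 passed limma in the F test among groups, the slope, the arms or the 3 comparisons of 8L, 16La and 16Lv; unadjusted p was under 0.05 for 1, 1, 4, 1, 2 and 4 genes in the F test, the slope, the arms, 8L minus 16La, 16Lv minus 8L and 16Lv minus 16La. Of all genes 3.79%, 5.15%, 4.81%, 4.21%, 5.42% and 5.79% stood under it in the same order. For the 13 of 17 transporters, 7 of 9 synthesis and breakdown enzymes, 29 of 43 scaffold and auxiliary genes, 4 of 5 glycine receptor genes and 13 of 15 signalling genes tested, the median of 8L minus 16La lay between -0.06 and 0.09 log2 units. SLC1A2, the main glial glutamate transporter, had the smallest p on the positive side of the slope (0.064 log2 units per hour, SE 0.020, limma adjusted p = 0.708) and in 16Lv minus 8L (0.57, SE 0.22, adjusted p = 0.886). GNAQ, the G protein below GRM5, had it on the negative side of the slope (-0.05, SE 0.032).

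PICK1, which brings GRIA2 off the membrane, had the smallest p on the negative side in 16Lv minus 8L (-2.26, SE 0.76, limma adjusted p = 0.821) and in 16Lv minus 16La (-2.60, SE 0.76, adjusted p = 0.531). SLC38A1, a glutamine transporter of neurons, had it on the positive side of the second (0.71, SE 0.27). In 8L minus 16La the smallest p values belonged to the scaffold DLGAP1 (1.30, SE 0.64) and the kinase subunit CAMK2B (-0.59, SE 0.35). For rising minus declining they belonged to NPTX2, a pentraxin that gathers AMPA receptors (0.64, SE 0.21, limma adjusted p = 0.792), and the scaffold SHANK3 (-0.57, SE 0.26). CBLN2, a partner of delta receptors, had the smallest p among the 9 groups (limma adjusted p = 0.998).

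The deposited count table, with 4834 to 156500 estimated counts per library (median 39688), reached the receptors only thinly. In it replicates 3 and 6 of 16Lv were kept as 2 samples (n = 6), since no pair of libraries there had a chi-square per degree of freedom under 3.95. It named 37 of the 42 subunits, plus GABRB1, a beta subunit. None of the 37 passed edgeR's minimum count, and GABRB1 was the only subunit among the 826 genes tested. It had 1180 counts summed over 12 transcripts, or 186 when each library's highest transcript was taken, in 42 of 54 libraries. GABRB1 averaged 506.1 ± 445.5 CPM in 8L and 327 ± 244.4 in 16La (SD, n = 6 each), from 0 to 1167 CPM in 8L and from 38.4 to 638.6 CPM in 16La, so the groups overlapped. It did not pass edgeR's quasi-likelihood test in any contrast (8L minus 16La 0.60 log2 units, SE 0.98, adjusted p = 0.998), and its unadjusted p was under 0.05 in none. Of the 826 genes 0.484% passed among the 9 groups and in 8L minus 16La, 0.605% in the slope, 0.242% in 16Lv minus 8L, 0.121% between the arms, in 10Lv minus 8L and in 12Lv minus 10Lv, 0.363% in 12La minus 14La and in 12Lv minus 12La, and 0% in the other contrasts. DESeq2 and limma-voom called no subunit either.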

How the data were processed

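Complementary DNA of polyadenylated RNA from 54 birds was sequenced on Oxford Nanopore flow cells, per the labels. Per the submitters' processing notes the tools included edgeR 3.24.3, minimap2 2.17 and Salmon 0.14.2. Which step each did, and the genome build, is not given in the sources used here, so no coordinates or sequences are printed. The authors deposited CPM per gene (19930 rows, of which 14 names turned into dates were left out) and estimated counts per transcript (expected counts, 40282 transcripts). CPM values were whole multiples of a library's most common positive value (99.83% to 100% within 0.1), which returned the reads. CPM were rescaled by TMM, a pseudocount of 1 was added, and log2 values entered limma-trend (limma 3.58.1) with 9 group means and no covariate. For the count table, counts were summed per gene and rounded, and edgeR 4.0.16 quasi-likelihood tests (TMM, filterByExpr, minimum count 10) were run. DESeq2 1.42.0 served as an alternative, in R 4.3.3. P-values were adjusted over all genes tested within a contrast. Both tests were also run on simulated counts with large changes, the same dispersion for every gene and no effect of column position. That setting is simpler than these data, so it does not show what the tests would miss here. Of 135 pairs of libraries within groups, 1 pair of the CPM table had a chi-square per degree of freedom under 1.5 (0.954, next 6.25) and was averaged; for tests of column position it took column position 3. Birds are separate individuals, per the labels, and no label gives a batch.

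The subunits, the lists and the rule for naming genes were chosen with earlier results of these data known. Named were the 3 subunits of highest mean CPM per class, the 3 of smallest p per direction in each main comparison (5 among the 9 groups), the 1 of smallest p per pair and step, and from the lists the gene of smallest p per direction. Alternatives covered pseudocount, filter, scaling, count models, shallow libraries and each library left out; column position as a block, leaving out the 9 shallowest libraries and the highest transcript per gene were added after seeing the data. Values of 5 subunits are not reported here; they stay in the fits, the counts and the class sums.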

Additional observations from a re-analysis of the deposited data

Results flagged for a closer look

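For 7 subunits, the highest or lowest library of each of 63 groups was compared with the others. In 13 the gap to the nearest library, as a share of the group's range, passed Dixon's 95% limit. The limit is set so that about 1 in 20 passes by chance, for groups picked without sight of their values. These 7 subunits were chosen with results of these data known, GABRB2, GRIA3 and GRM2 among them, and the groups share libraries. The count of 13 is therefore not compared with that rate. For GABRB2 the flagged libraries were those at 1315 CPM in 16La (next 542.9), 1907 in 14La (next 820.9), 1699 in 12La (next 422.1) and 1175 CPM in 8L (next 367.7). For GRIA3 they were 1136 CPM in 16La (next 492.9) and 3663 CPM in 10La (next 1384).

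GRIK1 had 1 low bird in 10La at 96.9 CPM, the next one being at 211.4. GABRA4 had 1 high bird in 10La at 57 CPM (next 29.8). For GRM2 the value rests on 1 to 4 reads each time, so Dixon's limit has no clear meaning for it. It gave 0.837 CPM in 1 bird of 14La, 2.16 in 12La, 5.12 in 10Lv, 2.9 in 12Lv and 1.95 CPM in 16Lv.

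GABRB1 was measured in the count table alone, outside the CPM table on which the comparisons rest, with 1180 summed counts. In 4 tests of whether the effect of arm differed between day lengths, or the slope between arms, 0 of 29 subunits passed limma's adjusted p of 0.05. Of all 8268 genes, 1 passed in the test of 12 h against 10 h and 0 in each other test.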

How the results depend on the processing

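From the CPM, no subunit was called by limma, limma-voom, edgeR or DESeq2 under each of the 526 combinations of comparison and alternative, and the smallest adjusted p of a subunit in any was 0.231. Among the 46 named subunit results, 3022 of 3025 values kept their direction and side of the threshold. The other 3 changed sign on leaving out 1 library, and the cause was not tested. With no subunit called from the CPM in any setting, the side of the threshold was the same throughout. The F test among the 9 groups has no direction to keep. The count of 3022 therefore does not show how steady the sizes were. GABRB2 in 8L minus 16La ran from -0.65 to 0.0048 (without 16La replicate 3), GRIN2A in 8L minus 16La from -1.22 to 0.36 (without 8L replicate 3), and GABRG1 in 16Lv minus 16La from -1.11 to 0.025 (without 16Lv replicate 4). From the estimated counts, 483 of 486 combinations called 0. With no filter on low counts, and 38 subunits among 16442 genes tested, edgeR called 7 subunits among the 9 groups (and 1449 of all genes) and 1 for rising minus declining (GRIA4, -2.25; 167 of all genes), and made 2 subunit calls over the 8 steps (142 over all genes; GRIA3 in 12La minus 14La, 4.65, and in 10La minus 12La, -4.65). These had 13 to 69 summed counts in 4 to 15 libraries, and the cause was not tested. Leaving out each library in turn gave 0 subunits called throughout, lowest and highest alike. Over all genes the CPM table's counts of 0 to 3 became 0 to 28 under other settings. Leaving out 1 library also moved values that no test called by over 1.5 times. In 16Lv minus 16La GRIK1 was 0.27 and GABRA4 -0.94 without 16La replicate 1, and GRIA4 -0.14 without 16Lv replicate 2. GRIA3 was 0.62 in 12La minus 14La and -0.56 in 12Lv minus 12La without 12La replicate 3. GRIK1 was -0.28 in 12Lv minus 10Lv without 12Lv replicate 3, GRM3 0.45 in 8L minus 10La without 10La replicate 6, and GRIN2A 0.23 in 16Lv minus 8L without 8L replicate 3. The slope was 0.037 for GABRB2 without 16Lv replicate 2 and 0.014 for GRIA2 without 16Lv replicate 1. Without the 9 shallowest libraries GABRA4 in 16Lv minus 16La was -0.39 and the GRIA2 slope 0.012. No paired analysis was possible because replicate numbers were given in accession order and name different birds. Column position, whose meaning is not given, was used as a block in place of it, and 0 subunits passed. Few reads fell on the low subunits: 18 of 42 averaged under 10 CPM, and GABBR2, 1 of them, had a median of 6 reads per library.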

Other observations

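GRM2, an autoreceptor that brakes glutamate release, had a read in 6 of 6 libraries of 16La (16 reads, 2.54 ± 1.26 CPM, SD) and in fewer birds of every other group. It had 1 read in 14La, 3 in 12La, 3 in 10La, 5 in 8L, 6 in 10Lv, 3 in 12Lv, 2 in 14Lv and 2 in 16Lv. 1 bird of 10Lv stood at 5.12 CPM, above the highest of 16La (4.23 CPM). It was chosen after its values were seen and lies under the filter. With no filter, limma gave -1.59 log2 units for 14La minus 16La (SE 0.39, adjusted p = 0.794) and -1.38 for 16Lv minus 16La (SE 0.40, adjusted p = 0.426).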
